A study of Gossypium hirsutum with 6 samples.

Results

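Jasmonate synthesis and signalling genes were read from 1 deposited table of 72761 genes of upland cotton (Gossypium hirsutum), as every gene whose protein description names a lipoxygenase, an allene oxide enzyme, a 12-oxophytodienoate reductase, a TIFY protein, jasmonate or jasmonic acid, coronatine-insensitive, or the transcription factors MYC2, MYC3 or MYC4. This gave 135 genes, 66 on A chromosomes, 68 on D chromosomes and 1 on a scaffold, since upland cotton carries both an A and a D subgenome. Leaf RNA was sequenced after poly-A selection in 3 libraries of transgenic lines, whose titles carry the name FPF1 (flowering promoting factor 1), and in 3 wild-type libraries titled W10. The series describes both constitutive expression and CRISPR mutants of this gene, and the labels do not say which the lines carry. They give no promoter, age, time of collection or growth condition for either group, nor whether replicates were separate plants or lines, so a p reflects the spread of these 6 libraries and that spread may be technical. Shade avoidance, the growth response of plants to neighbours, is the subject of the study, and the comparison asks how leaf RNA of the lines differs from that of wild type.

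Jasmonates are lipid hormones of wounding, defence and growth restraint. In the chloroplast, 13-lipoxygenases, allene oxide synthase and allene oxide cyclase turn linolenic acid into 12-oxophytodienoic acid (OPDA), which OPDA reductase and beta-oxidation convert to jasmonic acid in the peroxisome. JAR1 joins jasmonic acid to isoleucine, and the conjugate brings the receptor COI1 together with JAZ proteins, a branch of the TIFY family, which are then degraded. JAZ proteins otherwise hold back MYC2, MYC3 and MYC4, the factors that switch on jasmonate-responsive genes. These roles are known mainly from Arabidopsis.

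The authors deposited FPKM, read fragments divided by transcript length and library size, and values listed at the smallest entry (1e-04) were read as 0. Each library had 52037 to 53560 genes above 0, and its FPKM summed to 909815 to 933686. The number of reads is unknown. Relative depth, read from the smallest values, was 0.99 to 1.14 in the transgenic and 1.19 to 1.29 in the wild-type libraries. The FPF1-like gene GH_D02G0524 had 133, 199 and 195 FPKM in transgenic 1 to 3 but 0, 0 and 0.467 in wild type 1 to 3, so the libraries separate as labelled for this gene. Leaf mesophyll markers (chlorophyll a-b binding proteins and the small RuBisCO subunit) summed to 2240 to 2880 FPKM in the transgenic and 3840 to 5320 in the wild-type libraries, with 22 of 45 tested members lower and 2 higher. Xylem secondary wall markers summed to 52.5 to 109 against 11 to 13.5 FPKM. Of 19 tested, 13 were higher and 0 lower, and 11 of the 46 listed were at 0 throughout. The summed FPKM of dividing-cell markers was 143 to 162 against 169 to 184, that of floral markers 196 to 273 against 233 to 241, that of phloem markers 35.8 to 47.4 against 46.7 to 110 and that of guard cell markers 2.46 to 5.20 against 2.66 to 2.74. No marker was called among the dividing-cell, guard cell and phloem lists (0 of 10, 1 and 13 tested). In the floral list 4 of 30 tested genes were lower, 48 of the 110 listed being at 0. That list took any name with agamous in it, so it can include agamous-like genes that do not mark floral organs. The part of such tissue markers in the results that follow was not tested, and in bulk leaf fewer cells of a type cannot be told apart from less RNA per cell.

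Most of the jasmonate pathway was expressed in leaf and did not pass the test between the groups. Of the 135 genes, 94 reached a mean of 1 FPKM in at least 1 group and were tested, 29 stayed above 0 but too low, at no more than 1.65 FPKM in any library, and 12 were listed at 0 in all 6. With limma on log2(FPKM + 1) and Benjamini-Hochberg adjustment over all 43837 genes tested, 3 members rose and 3 fell in the transgenic libraries at an adjusted p under 0.05. That is 6.38% of the tested members, against 5.7% of all genes tested (3.92% higher, 1.78% lower), so the share of calls was close to the background. The groups did not overlap in 30 members (31.9%, 23 higher and 7 lower), as in 30.1% of all genes tested (20.6% higher, 9.51% lower). At an unadjusted p under 0.05 there were 27 members (28.7%), against 24.0% of all genes. The median log2 difference was 0.19 over the tested members and 0.08 over all genes tested, and 73 of the 94 members lay within 0.5 of 0. Of the 94, 5 passed the filter only through the transgenic and 4 only through the wild-type libraries, which fixed the direction of their difference. The called falls GH_A10G1501 and GH_A08G1275 were among the latter. The 95% confidence interval of a tested member had a median width of 0.87 on this log2 scale. Of all calls, 68.8% were rises on the deposited scale and 53.8% after median-of-ratios scaling, where 2 members rose and 3 fell. Without transgenic 2 the calls were 1 rise and 1 fall, and without wild type 1 they were 2 rises and 1 fall.

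**Figure D1:**
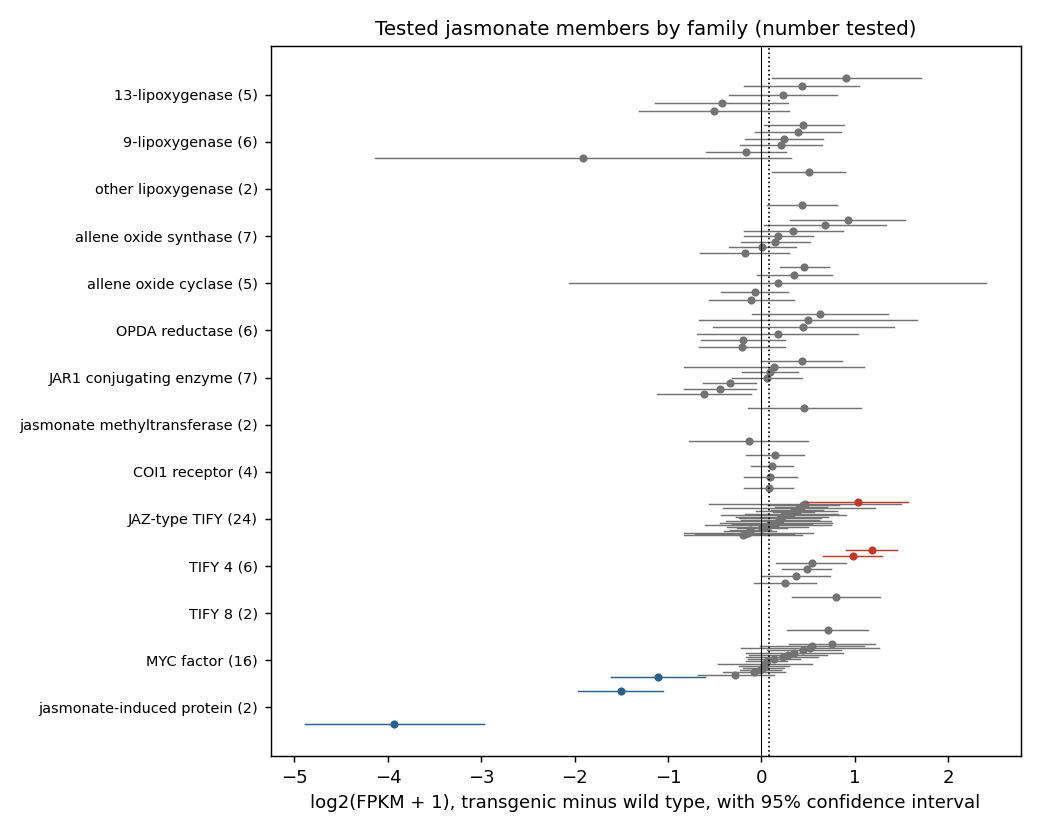
Difference in log2(FPKM + 1) between transgenic and wild-type leaf, with its 95% confidence interval, for each of the 94 tested members grouped by family (3 libraries a group). Red and blue mark the 3 members called higher and the 3 called lower, and the dotted line is the median of all genes tested, 0.08. Most members lie near 0, 73 of the 94 within 0.5. To the left lie both jasmonate-induced proteins (-3.93 and -1.5) and the uncalled 9-lipoxygenase GH_D08G2382 (-1.91, 95% interval -4.14 to 0.32).

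The TIFY family held all 3 rises, 2 in TIFY 4 genes and 1 among the 24 tested JAZ-type genes. TIFY proteins numbered 37, of which 32 were tested, and 27 of these had a positive log2 difference (25 after median-of-ratios scaling), with a median of 0.29. Of all genes tested, 60.6% had a positive difference and 3.92% were called higher, both on the deposited scale. The median log2 difference of all genes tested was 0.08 on that scale and 0 after median-of-ratios scaling. Without wild type 3 the median of the TIFY genes was 0.13, with 23 of 32 positive. The family is named for a short peptide motif and has several branches. JAZ proteins are the jasmonate repressors. TIFY 4 proteins, called PEAPOD in Arabidopsis, limit leaf size there by restricting late cell divisions. TIFY 8 lacks the domain by which JAZ proteins meet COI1.

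The pair of TIFY 4B-like genes on chromosomes A12 and D12 roughly doubled. GH_D12G0024 stood at 102, 111 and 93.4 FPKM in transgenic 1 to 3 and at 45.7, 39.5 and 48.3 in wild type 1 to 3. Its level was 2.29 times higher (log2 difference 1.18, standard error 0.117, adjusted p = 0.00497 by limma), and the call held in all 13 alternatives tried. GH_A12G0025 stood at 101, 99.1 and 81.0 FPKM against 52.8, 41.2 and 47.4, so that every transgenic library was above every wild-type one in both genes. Its level was 1.99 times higher (log2 difference 0.98, standard error 0.135, adjusted p = 0.0124 by limma), a call lost only without transgenic 2 (adjusted p = 0.072).

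The other 4 TIFY 4B-like genes were less abundant and not called. GH_A10G1200 stood at 22.7, 25.2 and 26.2 FPKM against 16.2, 16.4 and 19.6 (log2 difference 0.49, adjusted p = 0.0543 by limma). GH_D08G0701 was at 10.2 ± 1.33 against 6.73 ± 1.36 FPKM (mean ± SD, n = 3 each, here and below). The remaining GH_A08G0709 and GH_D10G1650 had log2 differences of 0.37 and 0.25. All 6 differences in the family were positive, also after either rescaling, and in 4 of the 6 the groups did not overlap, against 20.6% of all genes tested with the transgenic libraries higher. Summed over the family, the level was 247 to 279 FPKM in the transgenic and 132 to 151 FPKM in the wild-type libraries.

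Both TIFY 8 genes, a candidate pair of A and D copies, were higher in every transgenic library than in any wild-type library without passing the test. Of all genes tested, 20.6% were likewise higher without overlap. GH_A05G0104 stood at 15.7, 18.0 and 20.6 FPKM against 11.1, 8.07 and 13.4 (log2 difference 0.71, 95% interval 0.27 to 1.14, adjusted p = 0.0726 by limma). GH_D05G0107 stood at 9.52, 11.6 and 15.0 FPKM against 7.98, 5.10 and 6.37 (log2 difference 0.80, 95% interval 0.33 to 1.27, adjusted p = 0.0645 by limma). The first was called without wild type 3 (adjusted p = 0.0424).

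**Figure D2:**
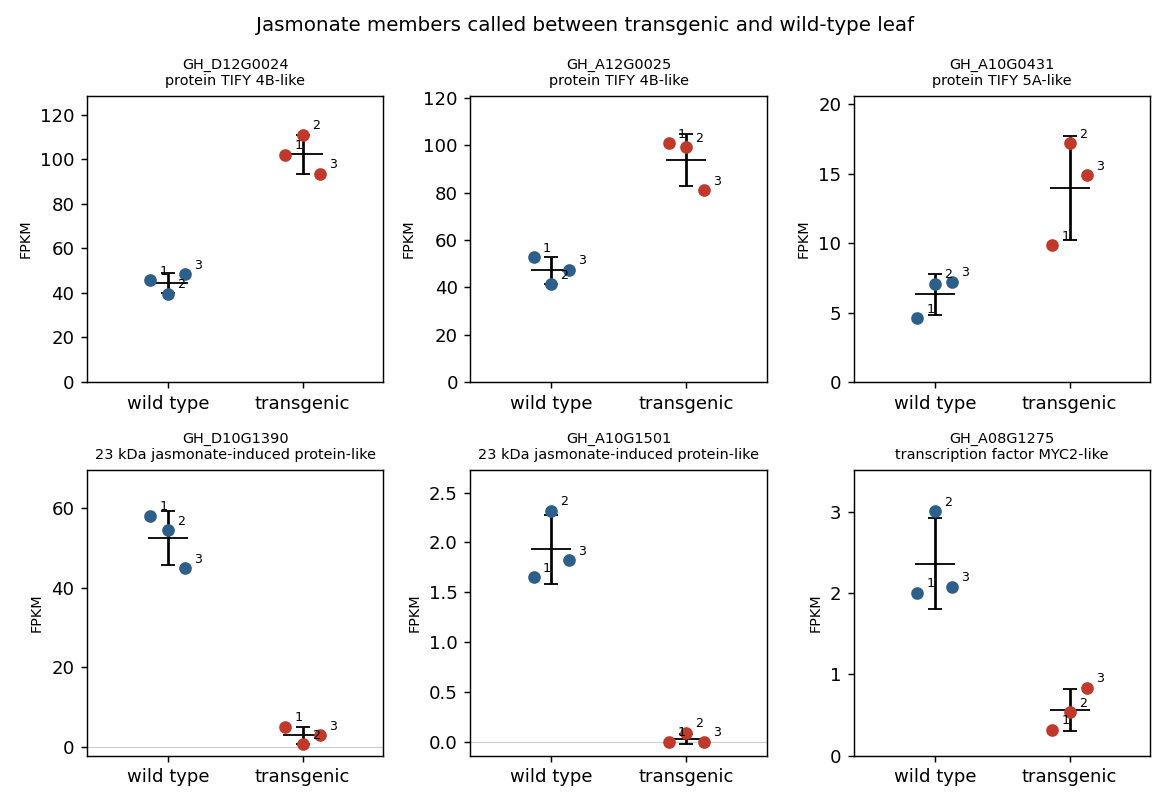
FPKM of the 6 called members in each library, numbered by replicate, with the mean and SD of each group (n = 3 each). In all 6 genes every transgenic library lies on one side of every wild-type library, as for GH_D12G0024 at 93.4 to 111 against 39.5 to 48.3 FPKM. The 6 were selected by the test on these same libraries, so the separation is no further support. Of all genes tested, 30.1% separated likewise.

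Among the JAZ-type genes, 29 listed and 24 tested, only the TIFY 5A-like gene GH_A10G0431 was called. Proteins of this TIFY 5A type, JAZ8 in Arabidopsis, lack the usual signal for degradation. GH_A10G0431 stood at 9.85, 17.2 and 14.9 FPKM in transgenic 1 to 3 and at 4.61, 7.07 and 7.23 in wild type 1 to 3, with no overlap. Its log2 difference was 1.03 with a standard error of 0.233, at the edge of the threshold (adjusted p = 0.0496 by limma). The call held in only 2 of 13 alternatives, and its adjusted p ran from 0.0233 to 0.172 over them. The gene's partner on D10, GH_D10G0454, was at 3.37 against 3.03 FPKM on average, with a log2 difference of 0.08.

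The most abundant transcript of all 135 members was the TIFY 3B-like gene GH_D05G0383, of the type of JAZ12, with 175, 172 and 145 FPKM in transgenic 1 to 3 and 172, 155 and 161 in wild type 1 to 3. The groups overlapped, and the log2 difference of 0.01 had a 95% interval of -0.26 to 0.27. Its A05 partner GH_A05G0378 was at 81.3 FPKM in transgenic 1 but at 22.1 to 28.6 FPKM in the other 5 libraries. TIFY 10B (GH_D07G0201), named JAZ2 in Arabidopsis, was at 94 ± 4.54 against 102 ± 3.27 FPKM (log2 difference -0.12), just without overlap. TIFY 11B-like genes, of the type of JAZ6, included GH_A10G0570 at 34.8 ± 3.87 against 26.5 ± 2.46 FPKM and GH_D10G0601 at 19.6 ± 2.12 against 14.3 ± 1.04. Neither passed the test (adjusted p = 0.11 and 0.0796 by limma), though their groups did not overlap. The other TIFY 11B-like genes overlapped, with GH_A05G1405 at 17.3 ± 2.85 against 15 ± 3.4 FPKM and GH_D05G1420 at 6.46 ± 0.914 against 7.69 ± 3.42 (log2 differences 0.20 and -0.14). The summed JAZ-type level was 591 to 679 FPKM in the transgenic and 535 to 618 FPKM in the wild-type libraries, which overlap.

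The largest called changes in the module were falls in the 2 genes described as 23 kDa jasmonate-induced protein-like, a name given to proteins first found in jasmonate-treated barley leaves. GH_D10G1390 stood at 58.0, 54.4 and 44.9 FPKM in wild type 1 to 3 and at 5.04, 0.741 and 2.99 in transgenic 1 to 3. The lowest wild-type library was thus far above the highest transgenic one, and the mean level was 17.9 times higher in the wild type. The log2 difference was -3.93 (standard error 0.409, adjusted p = 0.00598 by limma), and the call held in all 13 alternatives. GH_A10G1501, also on chromosome 10 but of the A subgenome, was low, at 1.65, 2.32 and 1.82 FPKM in the wild type and at 0, 0.0901 and 0 in the transgenic libraries. Its log2 difference on the log2(FPKM + 1) scale was -1.5 (standard error 0.195, adjusted p = 0.0105 by limma), and it was not called without transgenic 2 (adjusted p = 0.0544) or without wild type 1 (adjusted p = 0.0522). This gene passed the filter on low values only through the wild type, so it had to be lower in the transgenic libraries. Here as elsewhere in cotton, A and D copies may share reads, since the handling of multiply matching reads is not given in the sources used here.

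The MYC factors, which act downstream of JAZ, held 1 fall among 16 tested genes of 20. GH_A08G1275, described as MYC2-like, stood at 2.01, 3.01 and 2.08 FPKM in wild type 1 to 3 and at 0.322, 0.537 and 0.835 in transgenic 1 to 3, with no overlap. It was among the least abundant MYC genes tested and also passed the filter only through the wild type. Its log2 difference was -1.11 (standard error 0.215, adjusted p = 0.0331 by limma), and the call ended in 6 of 13 alternatives. Its candidate D08 copy, the MYC3-like GH_D08G1271, was too low to test, at 0.408 against 0.854 FPKM on average. The alternatives that ended the call were the replicate block (adjusted p = 0.062) and 5 of the 6 fits without 1 library, without wild type 3 being the exception (adjusted p = 0.0497), and the adjusted p without transgenic 2 was 0.122.

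The abundant MYC genes differed little. GH_D08G1840, the most abundant of the MYC2-like genes, had 64.8, 61.8 and 67.9 FPKM in transgenic 1 to 3 against 58.7, 52.2 and 66.7 in wild type 1 to 3 (log2 difference 0.13, 95% interval -0.14 to 0.41). GH_A08G1821 was at 45.8 ± 1.36 against 39.7 ± 9.21 FPKM and GH_A08G1484 at 42.5 ± 8.97 against 51.1 ± 5.58. GH_A03G0054, the most abundant MYC4-like gene, was at 28.9 ± 0.847 against 27.7 ± 1.3 FPKM. Over the 16 tested MYC genes the median log2 difference was 0.10, with 12 positive and 4 negative, or 8 and 8 after either rescaling. The filter fixed the direction of 1 positive (GH_A07G1722) and 1 negative (GH_A08G1275) among them.

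A MYC2-like pair on chromosome 12 leaned the other way from GH_A08G1275. GH_A12G1314 stood at 7.73, 10.1 and 14.1 FPKM in transgenic 1 to 3 and at 5.61, 5.77 and 5.74 FPKM in the wild type. The wild-type libraries were nearly alike and the transgenic ones spread widely above them (log2 difference 0.76, adjusted p = 0.0698 by limma). Its D12 partner GH_D12G1335 stood at 3.21, 5.33 and 7.14 FPKM against 3.10, 3.13 and 3.17, likewise without overlap and not called (adjusted p = 0.22 by limma). GH_A12G1314 was called without transgenic 1 (adjusted p = 0.0386).

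The receptor COI1 had 5 listed and 4 tested genes, none called. GH_A05G3439 had 23.5, 20.5 and 21.8 FPKM in transgenic 1 to 3 against 19.6, 19.3 and 23.4 in wild type 1 to 3, with a log2 difference of 0.08 and a 95% interval of -0.19 to 0.34. GH_D04G0696 was at 21.5 ± 1.27 against 19.7 ± 0.730 FPKM, and GH_A10G2535 and GH_D10G2666 at 8.03 ± 0.570 against 7.17 ± 0.990 and 8.38 ± 0.669 against 7.79 ± 0.772 FPKM. The groups overlapped in all 4, and their log2 differences spanned 0.08 to 0.15 (3 of the 4 positive after median-of-ratios scaling). Their 95% intervals lay between -0.19 and 0.46.

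None of the 31 tested genes grouped as synthesis (53 listed) was called, and 22 of the 31 had a positive log2 difference (20 of 30 after either rescaling). The filter fixed the direction of 3 of the positives and 1 of the negatives, and with no filter 26 of 47 were positive, with a median log2 difference of 0.01. Without wild type 2, GH_A13G1284 and GH_A08G0399 were called higher. In 7 of the 31 genes the groups did not overlap, each with the transgenic libraries higher, against 20.6% of all genes. The 31 include 6 9-lipoxygenases (4 positive, 2 negative), whose products lead away from jasmonate. They also include 6 OPDA reductases, of which 4 were positive and the 2 of the reductase 3 type negative. These counts are therefore not of jasmonate synthesis alone. The most abundant entry enzyme was GH_A05G0687, described as linoleate 13S-lipoxygenase 2-1, a type that feeds the jasmonate branch. It stood at 77.4, 56.5 and 122 FPKM in transgenic 1 to 3 and at 103, 149 and 85.4 in wild type 1 to 3. The groups overlapped, with transgenic 3 above wild type 1 and 3 (log2 difference -0.42, 95% interval -1.14 to 0.29). Its D05 partner GH_D05G0687, among the largest falls not called, followed the same order of libraries at 37.4, 33.2 and 67.4 against 66.8, 89.7 and 40.9 FPKM (log2 difference -0.51, adjusted p = 0.412 by limma). GH_D06G2345, a 13S-lipoxygenase 3-1-like gene, was low, at 1.89, 1.07 and 2.47 against 0.382, 1.25 and 0 FPKM (log2 difference 0.91, adjusted p = 0.163 by limma). Wild type 2 exceeded transgenic 2 in this gene. It reached the 1 FPKM minimum in the transgenic group alone and so had to be higher there.

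The lipoxygenases of the other class, which attack carbon position 9 and lead away from jasmonate, were as abundant. GH_D13G1213 was at 82.7 ± 3.3 against 73.2 ± 20.0 FPKM and GH_A13G1284 at 80.9 ± 3.71 against 63.2 ± 19.4. In both genes the transgenic libraries agreed closely and the wild type spread widely, as GH_A13G1284 at 55.5, 85.3 and 48.9 FPKM in wild type 1 to 3 shows. Without wild type 2 that gene was called (adjusted p = 0.0313). GH_D08G2382 had the largest difference among the members not called, with 3.52, 30.8 and 0.838 FPKM in wild type 1 to 3 and 0.377, 0.282 and 1.84 in transgenic 1 to 3. Wild type 2 alone set its mean, and transgenic 3 exceeded wild type 3 (log2 difference -1.91, 95% interval -4.14 to 0.32). This gene passed the filter only through the wild type, which fixed its direction.

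Of the lipoxygenase 6-like genes, GH_scaffold2396_objG0001 stood at 15.2, 18.9 and 24.0 FPKM against 14.6, 12.5 and 12.3, and GH_A03G1485 was at 9.81 ± 2.19 against 6.91 ± 0.438. Neither was called (adjusted p = 0.124 and 0.158 by limma). The groups did not overlap in either gene.

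Allene oxide synthase makes the unstable allene oxide that allene oxide cyclase closes to OPDA. The most abundant synthase, GH_A11G1614, had 37.4, 28.4 and 51.0 FPKM in transgenic 1 to 3 against 46.2, 37.9 and 45.6 in wild type 1 to 3, with overlap (log2 difference -0.18, 95% interval -0.66 to 0.30). The synthase-like gene GH_A04G1388 had the largest rise not called, at 5.67, 7.11 and 10.9 FPKM against 4.15, 2.41 and 4.34 (log2 difference 0.93, adjusted p = 0.0866 by limma). Its lowest transgenic library was above its highest wild-type one. Of the cyclases, GH_A08G0399 stood at 29.9, 33.6 and 32.0 FPKM against 22.3, 25.7 and 20.8, also without overlap (log2 difference 0.46, adjusted p = 0.058 by limma), and was called without wild type 2 (adjusted p = 0.0409). Its neighbour GH_A08G0400 was at 17.4 ± 4.4 against 13.2 ± 1.14 FPKM, while the cyclase pair on chromosome 12, GH_A12G1886 and GH_D12G1887, had log2 differences of -0.07 and -0.11. GH_D08G0423 was erratic, at 0.216, 0 and 6.99 FPKM against 4.92, 0 and 0.136.

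Among OPDA reductases, the reductase 3 type is the peroxisomal enzyme of jasmonate synthesis in Arabidopsis. Both genes of this type differed little, with GH_D05G0342 at 12 ± 3.39 against 13.6 ± 1.25 FPKM and GH_A05G0335 at 8.28 ± 2.46 against 9.51 ± 0.937. The other 4 tested reductases lie on chromosome 5, as 3 consecutively numbered D05 genes and GH_A05G1191, and the abundant ones varied widely within the transgenic group. GH_D05G1193 stood at 9.60, 19.4 and 37.1 FPKM in transgenic 1 to 3 and at 15.4, 7.41 and 20.0 in wild type 1 to 3. GH_A05G1191 stood at 6.68, 11.8 and 23.4 against 8.73, 6.28 and 12.3 FPKM. In both genes transgenic 3 was the highest of the 6 libraries, and transgenic 1 and 2 lay within the wild-type range (adjusted p = 0.582 and 0.552 by limma).

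**Figure D3:**
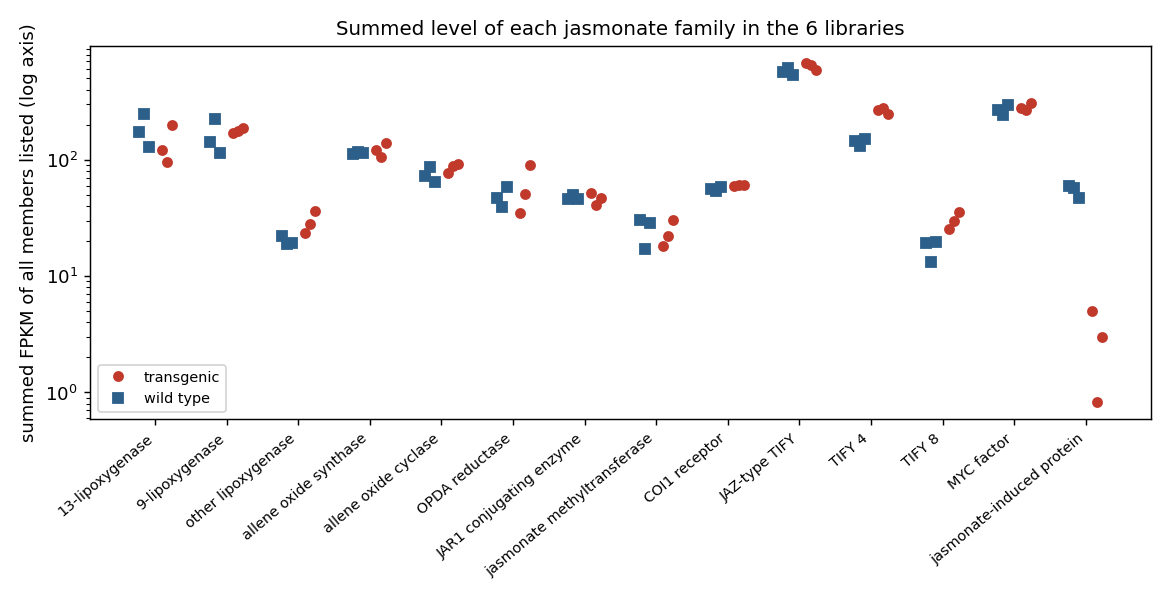
Summed FPKM of all listed genes of each jasmonate family in every library, on a log axis, with circles for the 3 transgenic and squares for the 3 wild-type libraries. The circles and squares separate in TIFY 4 (247 to 279 against 132 to 151), in TIFY 8, in other lipoxygenases, narrowly in COI1 and, most widely, in the jasmonate-induced proteins, and overlap in the other families.

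Enzymes that modify jasmonic acid had 9 tested genes of 16, none called. GH_D08G1534, the most abundant JAR1-like gene, had 34.9, 25.6 and 30.4 FPKM in transgenic 1 to 3 against 26.6, 28.5 and 29.7 in wild type 1 to 3 (log2 difference 0.09, 95% interval -0.21 to 0.39). Lower in every transgenic library than in any wild-type one were GH_D07G1512, its A07 partner GH_A07G1508 and GH_A13G0581. Such a fall without overlap was found in 9.51% of all genes tested. GH_D07G1512 was at 5.55 ± 0.485 against 7.29 ± 0.407 FPKM (adjusted p = 0.143 by limma). GH_A07G1508 was at 2.22 ± 0.313 against 3.38 ± 0.512 FPKM (adjusted p = 0.161 by limma). GH_A13G0581 stood at 0.852, 0.674 and 0.575 FPKM against 2.23, 1.52 and 1.14 (log2 difference -0.61, adjusted p = 0.143 by limma). GH_A11G0991 lay the other way, at 1.09 ± 0.0633 against 0.557 ± 0.124 FPKM. GH_A13G0581 passed the filter only through the wild type and GH_A11G0991 only through the transgenic libraries, so their directions were fixed. Jasmonate methyltransferase makes the volatile methyl ester, and its most abundant gene, GH_D05G1954, stood at 16.4, 20.4 and 29.0 FPKM against 28.6, 16.1 and 28.2 (log2 difference -0.13, 95% interval -0.77 to 0.50). The rule also took in a pair of genes named only for a lipoxygenase homology domain, both too low to test, the higher being GH_D12G2193 at 0.364 to 1.65 FPKM.

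Copies in the A and D subgenomes could be paired by identifier in 40 cases, taking genes of the same family on the same-numbered chromosome that were each other's nearest by gene number. The pairing is a candidate only, and a few pairs carry different descriptions. In 25 pairs both copies were tested, 19 had log2 differences of the same sign and 23 differed from each other by less than 0.5. The copies lay close together in the TIFY 8 pair (0.71 and 0.80) and the chromosome 12 TIFY 4B-like pair (0.98 and 1.18). The least alike were the TIFY 5A-like pair on chromosome 10 (1.03 and 0.08) and the methyltransferases GH_A05G1917 and GH_D05G1954 (0.46 and -0.13). The part of shared reads in this was not tested.

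**Figure D4:**
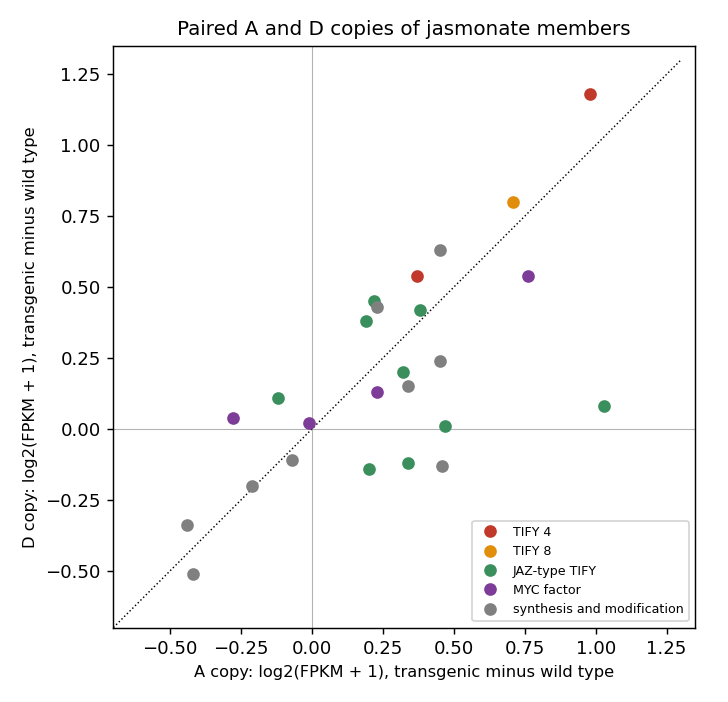
Difference in log2(FPKM + 1), transgenic minus wild type, of the D copy against that of the A copy for the 25 pairs of which both copies were tested, with the line of equality dotted. The chromosome 12 TIFY 4 pair sits at the upper right (0.98 and 1.18), and the TIFY 5A-like pair lies farthest from the line (1.03 and 0.08).

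Libraries of the same group also differed among the members, unevenly across the families. Among the 94 tested members, wild type 2 was the highest wild-type library in 47 (50.0%), against 39.0% of all genes tested, and transgenic 3 was the highest transgenic library in 49 (52.1%), against 38.8%. Wild type 3 was the lowest wild-type library in 39 members (41.5%), close to the 39.6% of all genes tested. The 24 tested JAZ-type genes, early targets of jasmonate in Arabidopsis, are part of the 94 and no separate observation. Of these 24, 18 (75%) were highest of the wild type in wild type 2, against 39.0% of all genes tested. In wild type 3, 16 of them (66.7%) were lowest, against 39.6%, so the JAZ-type genes weighed heavily in the member counts. Their median deviation from the gene's own mean, in log2(FPKM + 1), was -0.13, 0.13 and -0.30 in wild type 1 to 3 and 0.07, 0.12 and 0.01 in transgenic 1 to 3. Wild type 2 exceeded wild type 3 at least 2-fold on this scale in 8 members (8.51%, against 5.03% of all genes), and the reverse held in 1. The 8 included the TIFY 10A gene GH_D08G2793 (4.73, 8.77 and 2.52 FPKM in wild type 1 to 3), the TIFY 9-like GH_D01G0211 (13.4, 18.8 and 7.95) and the 13-lipoxygenase GH_D05G0687. Single libraries allow no test of these differences, and the labels name no batch.

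**Figure D5:**
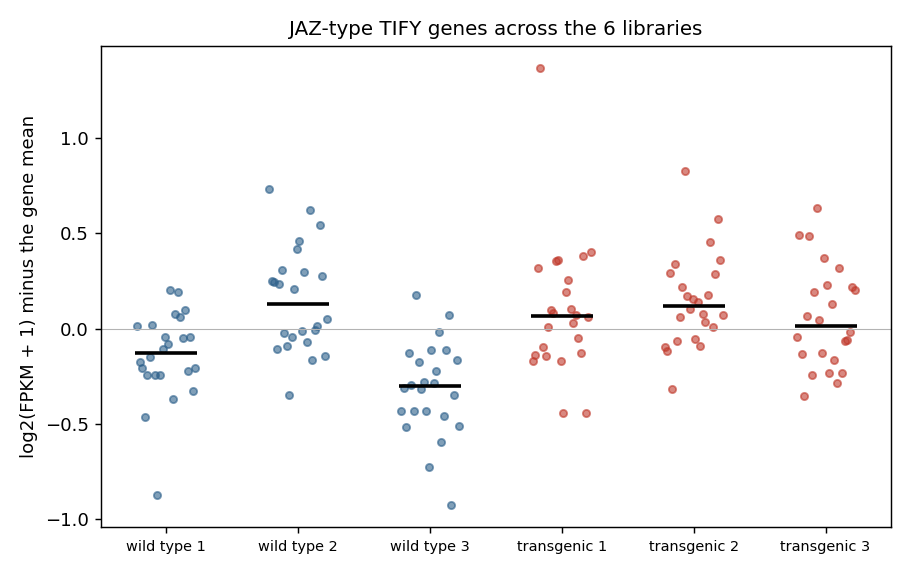
Level of each of the 24 tested JAZ-type TIFY genes in the 6 libraries, as log2(FPKM + 1) minus the gene's mean over the libraries, with a black bar at the median of each library. The median was 0.13 in wild type 2 and -0.30 in wild type 3, a wider gap than among the transgenic libraries (0.01 to 0.12).

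Other genes of the pathway, outside the 135, were searched with a list of linked enzymes, corepressors and defence products drawn up from pathway knowledge. Of 226 genes found, 147 were tested, 4 rose and 2 fell, with a median log2 difference of 0.03. That is 4.08% called, against 5.7% of all genes tested, so the list as a whole was at or below the background. The falls were both in MFP2-like multifunctional proteins of peroxisomal beta-oxidation. GH_A09G0813 stood at 28.0, 18.8 and 20.0 FPKM against 48.5, 50.6 and 42.2 (log2 difference -1.07, adjusted p = 0.016 by limma), and its D09 counterpart GH_D09G0761 was at 32.0 ± 3.24 against 46.6 ± 3.83 FPKM (log2 difference -0.53, adjusted p = 0.0423 by limma). Both falls were lost without transgenic 2, transgenic 3 or wild type 1. The call of GH_D09G0761 held in only 5 of 13 alternatives and that of GH_A09G0813 in 10.

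The rises lay in different steps. GH_D07G2321, cytochrome P450 94A1-like, of a family that in Arabidopsis includes enzymes that oxidise jasmonoyl-isoleucine, stood at 3.98, 5.64 and 5.72 FPKM against 1.97, 1.37 and 1.98 (log2 difference 1.14, adjusted p = 0.0205 by limma). GH_A12G2024, of the ninja family of adaptors between repressors and corepressors, described as AFP3-like, a type known from abscisic acid signalling, stood at 21.1, 20.8 and 19.8 FPKM against 12.6, 12.2 and 13.6 (log2 difference 0.65, adjusted p = 0.0146 by limma). GH_A11G0258, peroxisomal acyl-coenzyme A oxidase 1-like, was at 53.6 ± 2.61 against 38.4 ± 0.676 FPKM, a call that held in 3 of 13 alternatives and in neither rescaling. GH_D10G1220, phospholipase A1-IIdelta-like, of an enzyme class that frees fatty acids from membrane lipids, was at 66.2 ± 6.03 against 36.4 ± 9.68 FPKM (adjusted p = 0.0452 by limma), a call that held in 4 of 13 alternatives and was lost after either rescaling. Leaving out transgenic 2 or wild type 1 ended all 4 rises. None of the 30 bHLH, 14 defence-product, 11 amide hydrolase or 4 MED25 genes tested was called. The bHLH search matched the start of a name, so genes with longer bHLH numbers could enter. Its count therefore does not describe bHLH repressors of jasmonate responses alone.

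The deposited annotation places 49 of the 135 members in the KEGG pathway of alpha-linolenic acid metabolism, 68 in plant hormone signal transduction, and gives 73 the GO term for the response to wounding. Of 156 further genes in the alpha-linolenic acid pathway, a set chosen after values were seen, 93 were tested, 4 rose (4.3%, against 3.92% of all genes) and 5 fell (5.38%, against 1.78%). The rise of GH_A11G0258 and the falls of GH_A09G0813 and GH_D09G0761 were those of the linked list. Also higher were 4-coumarate-CoA ligase-like GH_D09G2598 (mean 9 against 0.224 FPKM) and GH_D02G1019 (33.7 against 23.3). So was the alcohol dehydrogenase GH_D02G0728 (50 against 14.8). The other falls were SDP1-like GH_D13G0023 (8.11 against 15.2) and GH_A13G0027 (12.4 against 23.8) and lipase-like GH_A09G0805 (1.69 against 5.28). In the authors' deposited table, whose test is not named, 12 of the 135 members had a q-value under 0.05 (8.89%, against 5.81% of the whole table). All 6 members called by limma were among them. The other 6 in the authors' deposited table were both TIFY 8 genes, GH_A12G1314, GH_A04G1388, GH_A13G0581 and GH_D08G2382, the last with a q-value of 0.00156.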

How the data were processed

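Per the file headers, the authors deposited 1 table with FPKM per library, a fold change (the ratio of the group means), its log2, a p-value and a q-value. The aligner, counting program, build, annotation, use of strand and test are not given in the sources used here, and reads of A and D copies or near-identical paralogs may be shared. With FPKM alone, read depth is unknown and no count test was run.

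FPKM were tested as log2(FPKM + 1) with limma 3.58.1 in R 4.3.3, with an intensity trend and robust estimation, two-sided and without covariates, for genes averaging 1 FPKM or more in either group. P-values were adjusted by Benjamini-Hochberg over all genes tested. Fold changes of low genes are understated on this scale. The fit was tested on simulated data.

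Members, lists and families were chosen with earlier results of these data known. Named genes were all called members, the most abundant of each family, the largest differences not called, the called genes of the linked list (the smallest adjusted p first), and genes behind counts of 5 or fewer. Others were named after their values were seen, as examples of a family. Alternatives were another pseudocount, 2 other filters, 2 rescalings, no trend, a replicate block and leaving out each library. No sequence was printed, since the reference table does not hold these identifiers.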

Additional observations from a re-analysis of the deposited data

How the results depend on the processing

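Of the 6 calls, GH_D12G0024 and GH_D10G1390 held in all 13 alternatives. With each library left out in turn, rises among the members numbered 1 (without transgenic 2) to 5 (without wild type 2 or 3), falls 1 to 3, and their median log2 difference was 0.12 to 0.25. That median was 0.08 with no filter on low values, against 0.06 over all genes in the same setting. After median-of-ratios scaling it was 0.11, against 0 over all genes. Of all genes, 289 to 2552 were called with 1 library left out (289 without transgenic 2, 803 without transgenic 3, 420 without wild type 1) against 2500 as deposited. Same-numbered libraries did not deviate together (correlations 0.0136, 0.0261 and 0.074), so the replicate numbers were not taken as pairs. With the replicate block 1532 genes were called, and among the members 5, GH_A08G1275 being lost (adjusted p = 0.062). In the linked list, rises numbered 2 after either rescaling or without the trend, and 0 to 4 with 1 library left out. Its falls numbered 4 after median-of-ratios scaling, 1 with no filter or with the block, and 0 to 3 with 1 library left out. Either rescaling also turned the sign of small differences in several families. After median-of-ratios scaling the MYC genes were 8 positive and 8 negative, the JAZ-type 17 and 7, the JAR1-like 2 and 5 and allene oxide synthase 5 and 2. Among the genes named by the rule, those that turned were GH_A05G3439 (-0.01), GH_D08G1534 (0.00) and GH_D05G0383 (-0.09, and -0.06 after upper quartile scaling). With 1 library left out the ranges that crossed 0 were those of GH_D08G1534 (-0.01 to 0.20), GH_D05G0383 (-0.05 to 0.09), GH_A11G1614 (-0.39 to 0.02) and GH_D05G1954 (-0.40 to 0.05). Median-of-ratios scaling divided the transgenic libraries by 1.016 to 1.055 and the wild-type libraries by 0.9589 to 0.9723, which lowered differences across all genes. What lies behind these factors, or behind the shifts with 1 library left out, was not tested. FPKM without counts limits what can be said of genes under about 1 FPKM.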
